A study of Mus musculus with 24 samples.

Results

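Lamin A/C was mapped by chromatin immunoprecipitation and sequencing (ChIP-seq) in immortalized fibroblasts of the mouse dermis, cultured skin cells, with or without LAP2alpha. The comparison set the 12-cycle library of antibody N18 from Tmpo KO cells (labelled Lap2alpha -/-) against the 12-cycle N18 library from Tmpo WT cells (Lap2alpha +/+), 2 of the 24 samples of the series and of the 12 with files at hand. The KO allele lacks exon 4 of Tmpo, which removes LAP2alpha and leaves the other products of the gene. Both lines were grown alike without treatment, and chromatin was sheared by 12 cycles of sonication. N18 was raised against the N terminus of lamin A/C. How many animals or clones each line came from is not given in the sources used here, and the loss of LAP2alpha cannot be checked from lists of regions.

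Members were all regions called in either library. EDD, a caller of broad domains that works in bins of 11 kb, gave 239 domains in KO and 238 in WT, out of 3486 in the 12 libraries. SICER, a caller of short enriched islands, gave 7118 islands in KO and 8762 in WT, out of 87065. Every base pair of a domain was put in 1 of 3 classes, namely KO-only, WT-only or shared by both genotypes, and an unbroken run of 1 class is called a stretch below. There were 248 KO-only, 211 WT-only and 168 shared stretches. With 1 library for each genotype there is no spread between replicates, and no test between genotypes was made, so all differences below are between these libraries. The islands held 5520180 reads in KO and 5091621 in WT.

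A-type lamins form filaments under the inner nuclear membrane, where they contact gene-poor chromatin, and a smaller pool lies in the nuclear interior. LAP2alpha, an isoform of LAP2 without a membrane anchor, binds A-type lamins in the interior and also binds the retinoblastoma protein, which restrains entry into the cell cycle. In several cell types A-type lamins have also been mapped to active chromatin away from the nuclear edge.

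The longest KO-only and WT-only stretches show at which loci the domain calls differed. The longest KO-only stretch, 4.62 Mb at chr16:18876001-23496000 (mm9), held 65 protein-coding genes, among them the olfactory receptor genes Olfr164, Olfr165 and Olfr166 and Cyp2ab1, a cytochrome P450 gene. The next, 4.47 Mb at chr3:31031001-35497000, was a whole domain with 20 genes, including Kcnmb2 and Kcnmb3, which encode regulatory subunits of a calcium-activated potassium channel, and the solute carrier gene Slc7a14. The third was 4.02 Mb at chr8:15708001-19723000 with 23 genes, including Csmd1, which spans 1643 kb and encodes a complement-regulating membrane protein, and a cluster of beta-defensins, short antimicrobial peptides. On the same chromosome 3.93 Mb at chr8:95304001-99231000 held 64 genes, with the matrix metalloproteinase genes Mmp2 and Mmp15, the noradrenaline transporter gene Slc6a2 and the kidney salt transporter gene Slc12a3. The fifth, 3.82 Mb on chromosome 18 from 11946001 to 15763000, held 21 genes, among them Zfp521, a zinc finger gene of progenitor cells.

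The longest WT-only stretch was 6.28 Mb at chr13:51007001-57288000 with 80 genes, among them Ror2, a receptor for Wnt ligands, and the phosphate transporter gene Slc34a1. The second was a whole WT domain of 5.09 Mb at chr13:69080001-74173000 with 30 genes, including Slc6a3, the dopamine transporter gene, Slc12a7, a potassium-chloride cotransporter gene, and the amino acid transporter genes Slc6a18 and Slc6a19. At chr9:102498001-106601000 lay 4.10 Mb with 53 genes, including Ryk, another Wnt receptor gene, and the collagen VI genes Col6a4, Col6a5 and Col6a6. The stretch of 3.78 Mb at chr5:135377001-139161000 held 112 genes, among them Cyp3a13, Slc12a9, Zfp157 and Zfp113, and began where the longest shared stretch ended. The fifth, 3.64 Mb at chr2:30426001-34067000, held 67 genes, including Tor1a and Tor1b, which encode torsins, ATPases of the nuclear envelope and endoplasmic reticulum. Counted per Mb, the 5 KO-only stretches carried between 4.48 and 16.3 genes, and the 5 WT-only ones between 5.89 and 29.6. Their ranges overlapped. Island reads did not always follow the class. They were nearly equal in the KO-only stretches of Csmd1 (27268 in KO, 28298 in WT) and Mmp2 (49942 and 47949) and in the collagen VI stretch (3437 and 3419). They lay far apart in others, such as the chromosome 16 stretch (28749 and 1849) and that of Ror2 (4115 and 64084).

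The start regions of the longest matched gene in each of the 3 longest KO-only and WT-only stretches are printed to show the sequence that N18 domains covered in only 1 genotype. Each run is 300 bases in the gene's direction, 250 before and 50 after the RefSeq start, from the RefSeq annotation of GRCm38.p6, and was found once and unchanged in mm9, whose positions are given. CG dinucleotides are in capitals. In KO-only stretches these were Vps8, a gene of endosome traffic (chr16:21422941-21423240, plus strand), Kcnmb2 (chr3:31801375-31801674, plus strand) and Defb39 (chr8:19064872-19065171, minus strand).
Vps8: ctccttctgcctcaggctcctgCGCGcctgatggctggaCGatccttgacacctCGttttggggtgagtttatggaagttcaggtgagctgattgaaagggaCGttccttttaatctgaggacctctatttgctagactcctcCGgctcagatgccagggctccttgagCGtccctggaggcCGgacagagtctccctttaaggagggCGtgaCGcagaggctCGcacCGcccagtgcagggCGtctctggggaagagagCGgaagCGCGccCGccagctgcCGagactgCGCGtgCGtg
Kcnmb2: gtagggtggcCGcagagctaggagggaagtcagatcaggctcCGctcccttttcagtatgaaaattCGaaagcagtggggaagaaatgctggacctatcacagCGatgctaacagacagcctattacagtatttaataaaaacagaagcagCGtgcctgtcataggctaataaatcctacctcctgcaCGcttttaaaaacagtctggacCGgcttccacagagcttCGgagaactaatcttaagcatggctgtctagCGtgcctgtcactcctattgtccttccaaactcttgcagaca
Defb39: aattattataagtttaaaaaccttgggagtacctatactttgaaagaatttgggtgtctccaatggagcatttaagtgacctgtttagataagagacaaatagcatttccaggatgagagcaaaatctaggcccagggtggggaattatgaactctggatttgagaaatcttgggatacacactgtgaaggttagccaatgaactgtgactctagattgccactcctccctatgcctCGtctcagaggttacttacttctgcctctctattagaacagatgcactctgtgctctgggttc
In WT-only stretches they were Ror2 (chr13:53381444-53381743, minus strand), Nsun2, an RNA methyltransferase gene (chr13:69750644-69750943, plus strand), and Cpne4, a copine gene (chr9:104471735-104472034, plus strand).
Ror2: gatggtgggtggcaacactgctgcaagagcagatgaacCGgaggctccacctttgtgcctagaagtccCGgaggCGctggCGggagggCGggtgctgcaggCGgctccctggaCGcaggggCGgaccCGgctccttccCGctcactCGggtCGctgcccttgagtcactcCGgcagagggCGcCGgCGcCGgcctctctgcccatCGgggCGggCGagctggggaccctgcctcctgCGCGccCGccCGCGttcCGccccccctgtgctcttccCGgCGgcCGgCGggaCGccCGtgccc
Nsun2: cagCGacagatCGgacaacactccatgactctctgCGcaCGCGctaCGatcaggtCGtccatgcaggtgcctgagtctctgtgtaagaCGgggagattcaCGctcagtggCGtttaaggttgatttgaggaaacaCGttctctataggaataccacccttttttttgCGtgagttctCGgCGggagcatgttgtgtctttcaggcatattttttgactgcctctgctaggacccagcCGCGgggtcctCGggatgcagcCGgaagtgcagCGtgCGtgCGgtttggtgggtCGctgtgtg
Cpne4: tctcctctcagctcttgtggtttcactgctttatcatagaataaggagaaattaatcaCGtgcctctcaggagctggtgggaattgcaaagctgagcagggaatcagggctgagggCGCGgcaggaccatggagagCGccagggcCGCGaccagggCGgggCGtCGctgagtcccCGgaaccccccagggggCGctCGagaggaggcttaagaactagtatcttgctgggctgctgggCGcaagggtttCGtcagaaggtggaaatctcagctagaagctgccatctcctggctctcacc
The KO-only runs held 21 (Vps8), 9 (Kcnmb2) and 1 (Defb39) CG, and the WT-only runs 32 (Ror2), 22 (Nsun2) and 14 (Cpne4). G+C made up 61.0%, 47.7% and 41.7% of the KO-only runs and 74.7%, 55.3% and 58.7% of the WT-only runs. The sets overlapped, since the run of Vps8 held more CG than that of Cpne4.

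Over all genes the same window was read in mm9 around the starts of the gene annotation. Windows of the 1697 KO-only genes held a median of 11 CG and those of the 2651 WT-only genes 15, beside 15 for shared genes and 11.5 for all 22208 genes. At least 15 CG were found in 42.6% of KO-only, 51.6% of WT-only and 50.4% of shared genes, against 43.6% of all. The letters TATAAA, searched on both strands, stood in 12.8% of KO-only windows and 8.68% of WT-only windows, against 13.4% of all. G+C of the stretches themselves ran the same way, at 43.4% in KO-only, 46.5% in WT-only and 47.0% in shared stretches, with 41.8% in the genome. KO-only genes therefore had start regions near the genome's average, while WT-only start regions were close to those that both genotypes held. The pentamer GAGAG, counted with its complement CTCTC, had 4.62 matches per kb in KO-only, 4.87 in WT-only and 5.10 in shared stretches, against 4.24 in the genome.

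Gene density separated the classes more than length did. Genes joined a class when domains covered at least 50% of their length. KO-only genes numbered 1697 (7.64% of all genes), WT-only genes 2651 (11.9%) and shared genes 3439 (15.5%). The KO-only class held 9.70 genes per Mb, the WT-only class 16.9 and the shared class 13.9, with 8.42 in the genome. Although KO-only stretches were longer in total, they thus held fewer genes than WT-only stretches. Most genes were covered wholly or not at all, since 1625 genes were whole in KO with none of their length in WT, and 2553 were whole in WT with none in KO. Out of 953 genes of at least 200 kb in the annotation, 69 were KO-only and 56 WT-only, and out of 200 of at least 500 kb, 15 and 5. The KO-only counts were thus near the KO-only share of all genes, and the WT-only counts were below the WT-only share. Median gene length was 15.6 kb for KO-only and 14.2 kb for WT-only genes, against 15.5 kb for all.

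The next question was whether domains moved at their edges or appeared and vanished as wholes. Both occurred at a similar scale. Of the 175 Mb found in KO alone, 86.7 Mb (49.6%) lay in 101 KO domains without a single WT bp, 51.9 Mb (29.7%) extended the edge of a domain that overlapped WT, and 36.3 Mb (20.8%) lay between parts shared with WT. Of the 157 Mb found in WT alone, 70.8 Mb (45.1%) lay in 87 WT domains without any KO bp, 65.8 Mb (41.9%) lay at edges and 20.4 Mb (13.0%) between shared parts. Over all chromosomes whole domains were the largest part of both lengths. Their order between the classes turned round with islands (66.96% of KO-only against 73.1% of WT-only bp) and domains scoring above the median (40.9% against 43.2%). It also turned round with sets of the same length (46.1% against 49.5%). The same held on the 9 chromosomes where islands covered a like share in both genotypes (35.5% against 35.8%). On those 9 chromosomes edges made up more of both lengths than whole domains did. Stretches at edges were short, with a median of 165 kb in KO and 297 kb in WT, against 649 kb and 682 kb for whole domains. No whole domain lay within 110 kb (10 bins) of a domain of the other genotype. The nearest one was at a median of 5940 kb for the KO-only domains and 5044 kb for the WT-only domains, and 15 of the WT-only domains were on a chromosome without a KO domain.

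**Figure D1:**
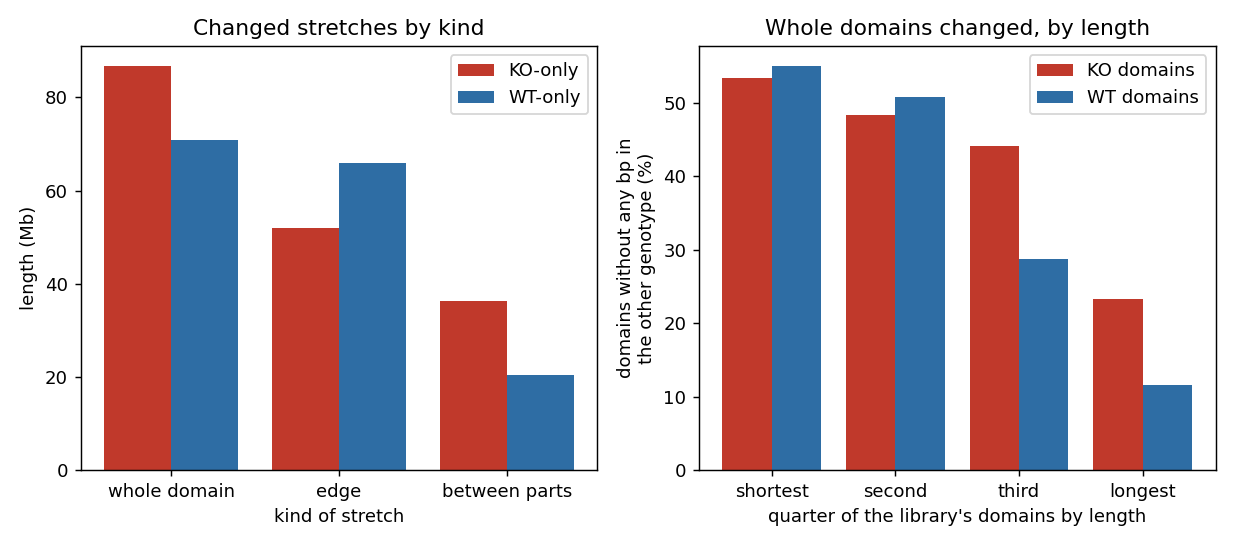
Left, Mb of KO-only and WT-only stretches (vertical axis) that were whole domains, edges or lay between shared parts. Right, percent of each library's domains without any bp in the other genotype, by length. Whole domains made up 86.7 Mb of the KO-only and 70.8 Mb of the WT-only length, and the 60 longest domains were without the other genotype in 23.3% of cases in KO and 11.7% in WT.

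Short, low-scoring domains were found in 1 genotype alone more often than long ones. Longer domains have more sequence that can meet a domain of the other genotype by position alone. The rule of no shared bp thus favours this order, and how far was not tested. Among the 60 shortest KO domains (165 to 506 kb) 53.3% had no WT bp, and among the 60 longest (1452 to 22572 kb) 23.3% had none. In WT the shares were 55% of the 60 shortest (198 to 528 kb) and 11.7% of the 60 longest (1683 to 32703 kb). The EDD score, which grows with domain length, had a median of 6.24 in the KO-only domains against 7.95 in all KO domains, and of 6.30 in the WT-only domains against 8.02 in all WT domains. Strong domains were among them too, with scores up to 36.0 in KO and 45.7 in WT, and 27 KO-only and 18 WT-only domains reached 1 Mb. At the other end, 52 KO domains lay wholly inside WT domains and 68 WT domains lay wholly inside KO domains.

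Where domains of both genotypes overlapped, 94 KO domains met exactly 1 WT domain that met no other. These pairs covered 128 Mb in KO and 141 Mb in WT, and 40 were longer in KO, 53 shorter and 1 of the same length. Of their 188 edges 93 lay farther out in KO, 81 farther in and 14 at the same bin. The median absolute shift was 170.5 kb, with the middle part of the distribution from 44 to 497.75 kb, and 74 edges were within 110 kb, but 20 had moved by over 1 Mb. The farthest outward edge lay 4620 kb out, at the chromosome 16 stretch of Cyp2ab1, and the farthest inward one 4103 kb in, at the chromosome 9 stretch of the collagen VI genes. Only 14 pairs had both edges within 110 kb. Edges shifted both ways, with a median signed shift of 0 kb, but inward shifts were longer, with a median of -297 kb against 154 kb for outward ones, and 13 of the 20 shifts over 1 Mb were inward.

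**Figure D2:**
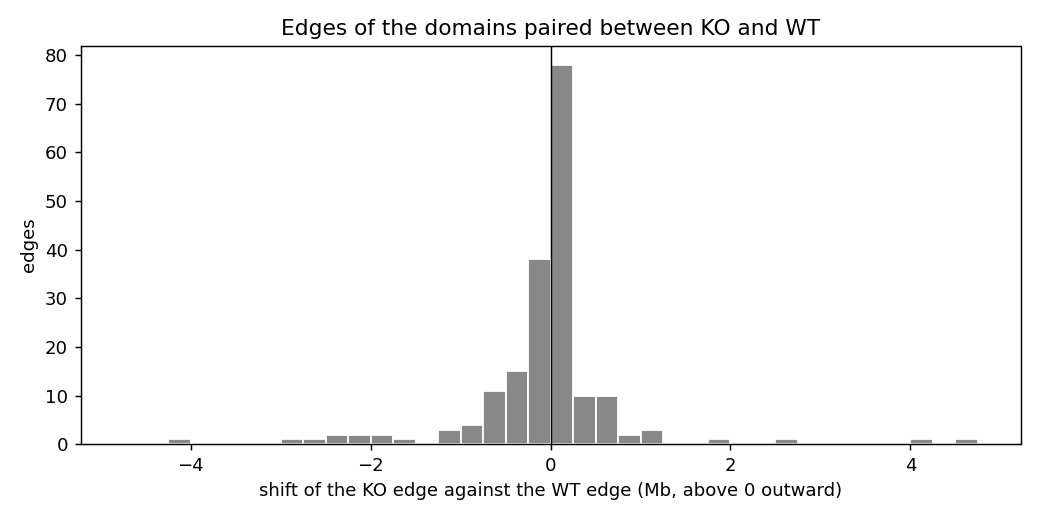
Number of edges (vertical axis) by the shift of the KO edge against the WT edge in Mb (horizontal axis, outward above 0), for the 188 edges of 94 domain pairs. There were 93 outward and 81 inward shifts, the 14 edges at the same bin count in the first bar right of 0, and the long tail lay to the left, with 13 inward and 7 outward shifts over 1 Mb.

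Joining and splitting changed more sequence than the pairs did. In 14 cases a single KO domain joined several WT domains, up to 6 of them, so that 14 KO domains of 144 Mb stood against 42 WT domains of 93.9 Mb. In 12 cases the opposite held, and 26 KO domains of 51.8 Mb stood against 12 WT domains of 87.4 Mb. In 1 further group 4 KO domains met 3 WT domains. The longest KO domain (22.6 Mb, chr5:112805001-135377000) was shared throughout and held Auts2, a very long neuronal gene, and Eln, the elastin gene. It lay inside the longest WT domain (32.7 Mb), whose next part was the WT-only stretch of Cyp3a13. Other long shared stretches held Cdh13, a cadherin gene, and Kcnk1, a potassium channel gene (chr8:118569001-128986000, 10.4 Mb), Cdh22, another cadherin gene (chr2:161810001-173547000, 11.7 Mb), Serpina9 and Serpina12, which encode protease inhibitors (chr12:103774001-114774000, 11 Mb), and Sun2, which links the lamina to the cytoskeleton (chr15:73370001-80311000, 6.94 Mb).

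Change was sorted by chromosome. KO-only sequence exceeded WT-only sequence on 9 chromosomes and the reverse held on 11, and 91.2% of all changed bp lay in the leading direction of their chromosome. Chromosomes 3, 16, 18 and X kept all WT domain sequence and added 15.3, 27.3, 24.1 and 9.57 Mb in KO. The sequence kept was 0.649, 8.55, 5.225 and 2.54 Mb, in 1, 8, 6 and 2 WT domains. On chromosome 8 KO-only sequence was 24.6 Mb against 0.165 Mb WT-only, on chromosome 15 6.92 Mb against 0.0770 Mb, on chromosome 12 17.7 Mb against 1.00 Mb and on chromosome 7 25.4 Mb against 4.73 Mb. Chromosomes 10 and 14 had no KO domain, where WT had 10.7 and 2.52 Mb, and chromosome 13 had 18.2 Mb WT-only and none KO-only. Chromosome 4, with 3.63 Mb KO-only and 2.96 Mb WT-only, was the most even. The genes followed, as chromosome 16 held 315 KO-only and 0 WT-only genes, chromosome 10 held 0 KO-only and 281 WT-only genes, and chromosome 17 held 6 and 358.

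**Figure D3:**
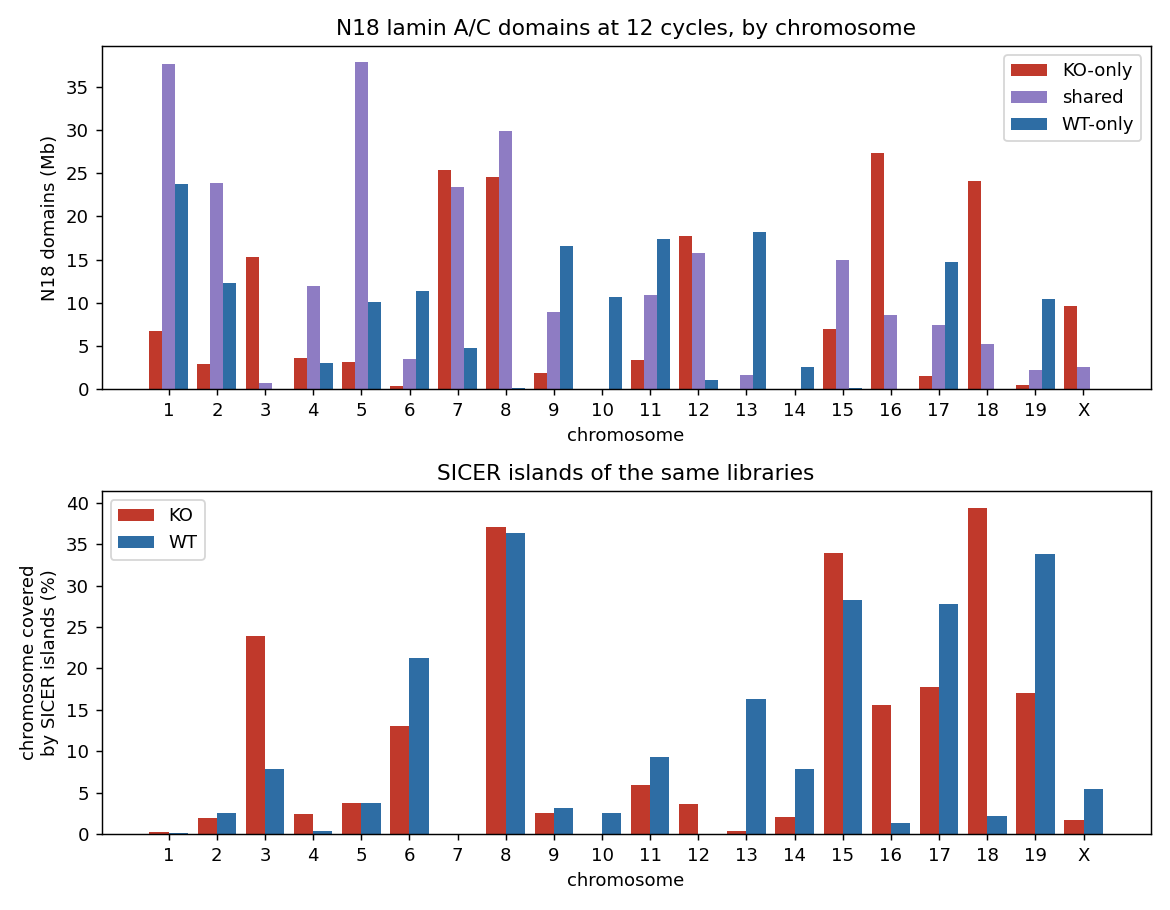
Top, Mb of KO-only, shared and WT-only N18 domains (vertical axis) on each chromosome (horizontal axis). Bottom, percent of each chromosome covered by SICER islands in KO and WT. Chromosomes 3, 16, 18 and X had no WT-only sequence, chromosomes 10, 13 and 14 had no KO-only sequence, and islands covered 39.4% of chromosome 18 in KO against 2.26% in WT.

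Island coverage moved with several of these chromosomes as a whole. The KO minus WT difference had the same sign in domains and islands on 18 of 20 chromosomes, but some of these signs rested on little. On chromosome 8 islands covered 37.1% in KO and 36.4% in WT, and on chromosome 5 3.74% and 3.77%. Chromosome 7, with 25.4 Mb KO-only, had 4 islands in KO and 1 in WT. On chromosome 16 islands covered 15.6% in KO and 1.35% in WT, on chromosome 3 24.0% and 7.93%, and on chromosome 10 there was 1 island in KO against 208 in WT. Sequence outside all N18 domains shared in this. On chromosome 18 the ratio of KO to WT island reads was 21.1 in KO-only stretches and 21.2 outside domains, on chromosome 16 14.8 and 13.0, and on chromosome 3 3.60 and 3.18. On chromosome 13 it was 0.0383 in WT-only stretches and 0.0138 outside domains. Reads per kb of island stayed alike on chromosomes 3, 13, 16 and 18 (21.5 in KO and 18.8 in WT on chromosome 18, 20.4 and 19.8 on chromosome 13). There the ratios mostly followed how much sequence was called. The 1 KO island of chromosome 10 had 184 reads per kb, against 18.6 for the WT islands. The 2 chromosomes that parted were X, whose islands covered 1.77% in KO and 5.46% in WT while domains covered 7.27% and 1.52%, and chromosome 1, with 0.211% and 0.115% in islands but 22.5% and 31.1% in domains. The part of these chromosome-wide differences in the domain changes was not tested, and the inputs against which each genotype was called were not analysed here.

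**Figure D4:**
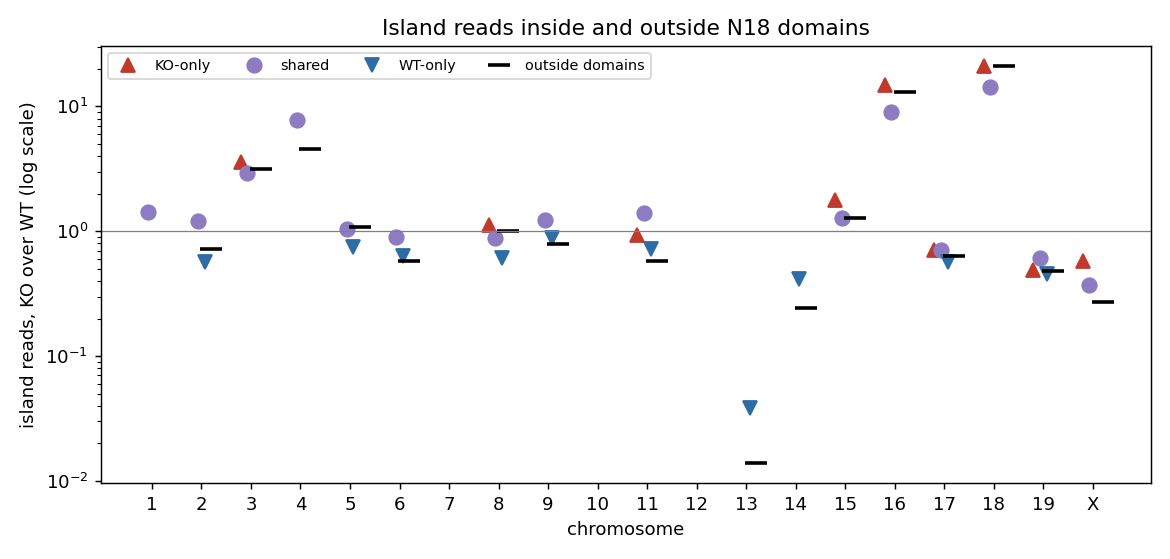
Ratio of KO to WT island reads (vertical axis, log scale) on each chromosome (horizontal axis), in KO-only, shared and WT-only stretches and outside domains, for sets with at least 1000 reads in both libraries. On chromosome 18 KO-only stretches (21.1) and sequence outside domains (21.2) had nearly the same ratio, and on chromosome 13 WT-only stretches (0.0383) and sequence outside domains (0.0138) were far below 1.

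On 9 chromosomes (2, 5, 6, 8, 9, 11, 15, 17 and 19) islands covered over 1% in both genotypes and differed by at most 2 times. There, island reads in KO-only stretches were 426805 in KO and 334395 in WT (ratio 1.28), with 42.7% and 34.3% of the sequence covered. In WT-only stretches they were 372726 in KO and 644109 in WT (ratio 0.579), with 19.9% and 32.9% covered. Outside domains the ratio was 0.775, and in shared stretches 0.981. Over all 20 chromosomes the ratio was 2.66 in KO-only stretches (31.9% covered in KO, 12.3% in WT), 0.470 in WT-only stretches (12.5% and 25.7%), 1.15 in shared stretches and 0.979 outside. The domains and islands were called from the same reads, so island reads that follow the class are no separate evidence. The KO-only ratio on the chromosomes of like coverage rested on chromosome 8 (267848 reads in KO and 236703 in WT) and chromosome 15 (144432 and 81832), and it was below 1 on chromosomes 11 (0.935), 17 (0.709) and 19 (0.491). Chromosome 9 held 412 reads in KO and 572 in WT there. On those chromosomes KO-only sequence came to 45.1 Mb and WT-only sequence to 93.1 Mb, the reverse of the order over all chromosomes.

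Split by the same rule, the islands changed more as wholes than the domains did. KO-only island sequence came to 154 Mb and WT-only to 140 Mb, with 101 Mb shared. Islands without overlap made up 66.96% of the KO-only bp and 73.1% of the WT-only bp. They were 3969 of the KO islands (55.8%) and 5418 of the WT islands (61.8%), and they were shorter than the rest, at a median of 21 kb against 29 kb in KO and 15 kb against 25 kb in WT. Reads per kb hardly differed, at a median of 20.4 for KO islands without overlap against 20.96 for those with it, and 20.03 against 21.1 in WT.

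Genes of the nuclear lamina and envelope had a larger WT-only share than all genes in these libraries. Of 41 such genes 2 were KO-only (4.88%), 11 WT-only (26.8%) and 8 shared, against 7.64%, 11.9% and 15.5% of all genes. The KO-only members were Hdac3, a histone deacetylase held at the nuclear envelope, on chromosome 18, and Zbtb7b, on chromosome 3, which encodes a zinc finger protein known to bind GA-rich repeats of lamina-associated DNA. Among the WT-only members, Lmnb2 on chromosome 10 encodes lamin B2, Lbr on chromosome 1 encodes the lamin B receptor, and Banf1 on chromosome 19 encodes a DNA-bridging protein that binds LEM domains. Nrm (nurim), Tmem43 and Tm7sf2 encode membrane proteins of the envelope or the endoplasmic reticulum, Nup210 encodes a pore membrane protein, Ankle2 a LEM protein, and Narf a protein that binds prelamin A. With Tor1a and Tor1b, these 11 genes lay in 8 separate stretches on 8 chromosomes. All 8 chromosomes had more WT-only than KO-only sequence, and chromosomes 3 and 18 of the KO-only members had no WT-only sequence. The classes of these genes thus went with the direction of their chromosomes, and the share within chromosomes was not tested. The shared members included Sun1, Sun2 and Lemd2, and the genes of the proteins under study, Lmna and Tmpo, were in no N18 domain of either genotype.

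Cell cycle genes linked to the retinoblastoma protein were divided. Of 39 genes 5 were KO-only (12.8%), 8 WT-only (20.5%) and 3 shared (7.69%), against 7.64%, 11.9% and 15.5% of all genes. Cyclin genes fell on both sides, with Ccnd1 and Ccne1 (both on chromosome 7) KO-only and Ccnd2 (chromosome 6) and Ccnd3 (chromosome 17) WT-only. KO-only were also Rbl2, which encodes the retinoblastoma relative p130, the repressor gene E2f6 and the replication helicase gene Mcm6. WT-only were Cdk4, the kinase partner of D-type cyclins, the inhibitor genes Cdkn1a and Cdkn2d, the repressor gene E2f8 and the helicase genes Mcm2 and Mcm7. The other 23 genes, including Rb1, Rbl1, E2f1 and Trp53, were at least 50% covered in neither genotype. Each of the 13 changed genes was covered by 100% in 1 genotype and 0% in the other.

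Of 105 matrix genes of fibroblasts 8 were KO-only (7.62%) and 14 WT-only (13.3%), close to all genes, and 11 were shared (10.5%, against 15.5% of all genes). The receptors for platelet-derived growth factor lay on opposite sides, Pdgfrb (chromosome 18) being KO-only and Pdgfra (chromosome 5) WT-only, with 76.7% of its length covered in WT. KO-only members were the collagens Col23a1 and Col22a1 (65.3% covered), Mmp2, Mmp15, Mmp21, the proteoglycan gene Bgn and the thrombospondin gene Thbs3. WT-only members were the collagens Col6a4, Col6a5, Col6a6, Col7a1, Col13a1 and Col18a1, Fbln2 and Efemp2, which encode fibulins, Fmod, Tnxb, Mmp11, Timp2, which encodes a metalloproteinase inhibitor, and Thy1, a fibroblast surface marker. Col4a1, Col4a2, Col5a1, Col6a3 and Eln were shared. Wnt ligand and receptor genes had 0 of 34 in KO-only and 9 in WT-only sequence (26.5%), against 7.64% and 11.9% of all genes. The 9 lay in 8 stretches, all on chromosomes with more WT-only than KO-only sequence. Ror2, Lrp5, Ryk, Wnt7a and Wnt3a were the longest.

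Gene families that sit in clusters had their changed members in few places. Cytochromes P450 had 30 of 97 genes KO-only (30.9%) and 5 WT-only (5.15%), against 7.64% and 11.9% of all genes. But the 30 lay in 6 stretches, with Cyp2b9 and Cyp2b13 on chromosome 7 and Cyp3a59 and Cyp3a25 on chromosome 5 the longest. Olfactory receptors, the largest family of the genome, had 60 of 1113 KO-only (5.39%) and 12 WT-only (1.08%), both below the share of all genes. Vomeronasal receptors had 21 of 330 KO-only (6.36%) and 1 WT-only (0.303%), also below the shares of all genes. Beta-defensins had 15 of 41 KO-only (36.6%) in 2 stretches and 11 WT-only (26.8%) in 1 stretch of chromosome 2, where Defb36 was the longest. Keratins and keratin-associated proteins had 22 of 97 KO-only (22.7%) in 2 stretches and 18 WT-only (18.6%) in 3, with Krtap15 and Krt19 the longest. Counts of these families therefore rest on few loci.

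The other lists are set against 7.64% KO-only and 11.9% WT-only of all genes. Ribosomal protein genes had 7 of 80 KO-only (8.75%) and 15 WT-only (18.8%), spread over 7 and 13 stretches. Potassium channel genes had 12 of 94 KO-only (12.8%) and 10 WT-only (10.6%), with Kcnn2 and Kcnk2 the longest. Very long neuronal adhesion genes had 5 of 52 KO-only (9.62%), led by Csmd1, Ntm and Dscam, and 2 WT-only (3.85%), Grid1 and Odz4. Solute carriers had 27 of 353 KO-only (7.65%) and 49 WT-only (13.9%), close to all genes. Numbered zinc fingers had 42 of 367 KO-only (11.4%) and 26 WT-only (7.08%). Glutamate and GABA receptors had 4 of 48 in each class (8.33%), cadherins and protocadherins 4 of 59 KO-only (6.78%) and 2 WT-only (3.39%), and serpins 0 of 60 KO-only and 2 WT-only (3.33%). None of 39 Hox genes was in an N18 domain by this rule, and of 55 Hist1 histone genes 1, Hist1h2al, was WT-only.

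**Figure D5:**
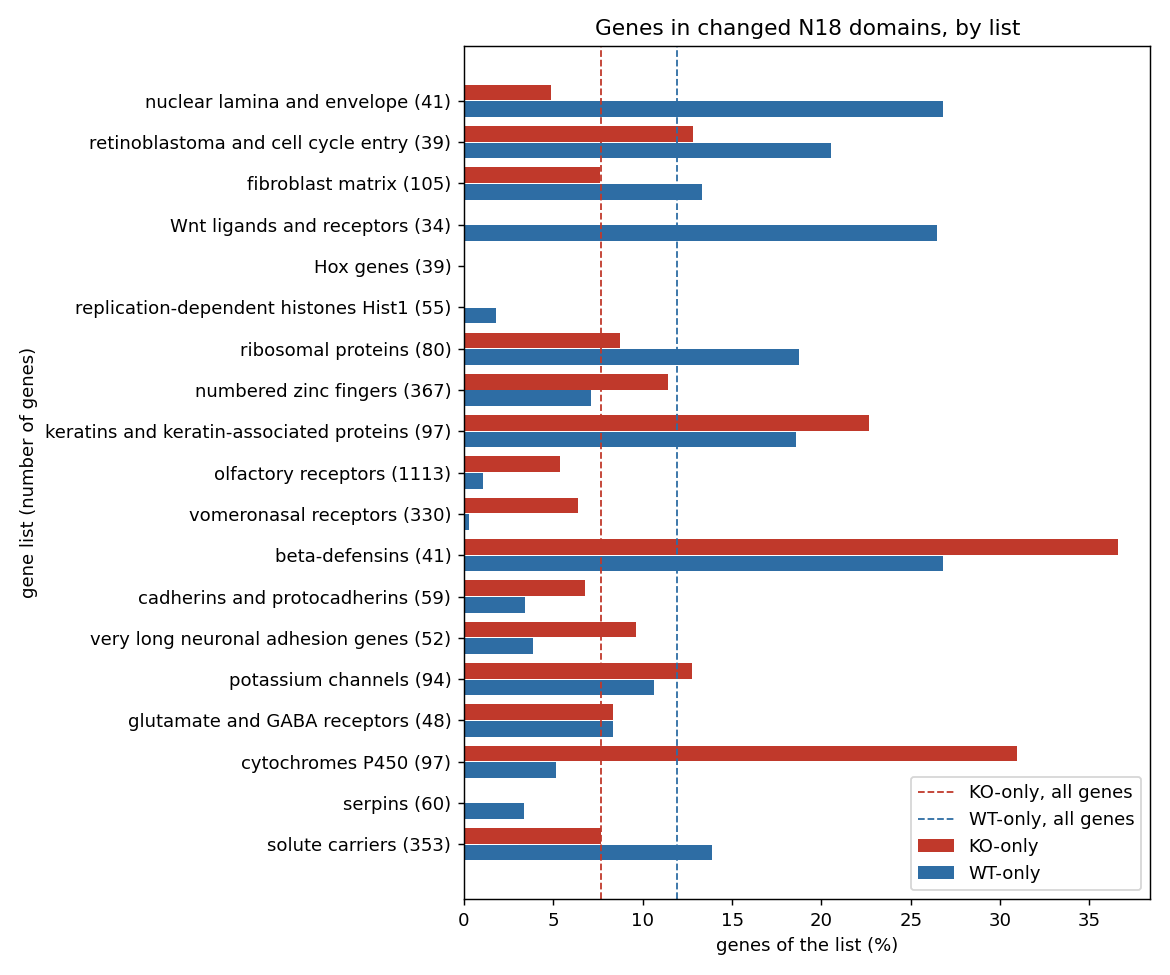
Percent of the genes in each list (horizontal axis) that were KO-only or WT-only, for 19 lists with their number of genes. Dashed lines mark the same over all 22208 genes, 7.64% KO-only and 11.9% WT-only. Cytochromes P450 (30.9% KO-only) and nuclear lamina and envelope genes (26.8% WT-only) lay on opposite sides.

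The 12-cycle LAP2alpha domains of WT cells were set beside the classes to see where LAP2alpha lay in WT cells. They covered 14.6% of the whole KO-only domains, 31.5% of KO-only edges and 35.3% of KO-only sequence between shared parts. Of WT-only sequence they covered 73.7% of whole domains, 82.3% of edges and 100% of the parts between shared sequence. Shared sequence was covered to 95.9%, against 80.7% of all WT-only sequence. With 19.2% of the genome covered by LAP2alpha domains, wholly new KO domains lay below that share, and KO-only edges and inner parts above it. WT-only and shared sequence lay mostly inside LAP2alpha domains, shared sequence the most. The 30-cycle LAP2alpha domains differed less between the classes, covering 35.9% of whole KO-only and 42.2% of whole WT-only domains, with 24.6% of the genome. The 12-cycle LAP2alpha domains and the WT N18 domains were called against WT input of the same shearing. What they have in common is thus a description and carries no test. No test was made with the 30-cycle domains either. Lamin B1 domains of the nuclear edge at 30 cycles covered 38.4% of whole KO-only domains and 11.03% of whole WT-only domains, with 36.2% of the genome. At 12 cycles lamin B1 domains covered 14.5% and 10.5% of them, with 16.9% of the genome, so this contrast was smaller at the shearing of the N18 libraries. The 12-cycle lamin B1 domains covered 20.1% of shared sequence, against 17.7% of all KO-only and 8.23% of all WT-only sequence. The stretch of Csmd1 and the beta-defensins on chromosome 8 was 85.5% covered by the 30-cycle lamin B1 domains, whereas the WT-only stretch of Cyp3a13 on chromosome 5 and that of Tor1a on chromosome 2 had 0%.

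The other lamin A/C antibody, 3A6, was called against the same inputs at 12 cycles and gave 197 Mb KO-only, 212 Mb WT-only and 187 Mb shared. Whole domains made up 72.8% of its KO-only and 45.1% of its WT-only length, against 49.6% and 45.1% with N18. The share of changed bp in the leading direction of each chromosome was 80.6%, against 91.2% with N18. For chromosome 16 the KO minus WT difference was 27.3 Mb with N18 and 26.3 Mb with 3A6, for chromosome 18 24.1 and 20.04 Mb, and for chromosome 13 -18.2 and -11.3 Mb. Chromosome 5 differed more, at -6.92 Mb with N18 and -26.1 Mb with 3A6, as did chromosome 8, at 24.4 and 6.70 Mb. The antibodies had opposite signs on chromosome 4 (0.671 Mb with N18 and -5.445 Mb with 3A6) and chromosome 15 (6.84 and -1.12 Mb). After 30 cycles N18 gave -1.82 Mb on chromosome 3 and 3.06 Mb on chromosome 13, where 12 cycles had given 15.3 and -18.2 Mb. The sign of this difference was opposite at 12 and 30 cycles on 12 of 20 chromosomes with N18. At 30 cycles the N18 difference was positive on every chromosome but chromosome 3. The 12 were thus chromosome 3 and all chromosomes with a negative difference at 12 cycles. The 30-cycle N18 domains of KO covered 55.1% of WT-only and 42.4% of KO-only sequence, with 17.9% of the genome. Those of WT covered 11.05% and 27.3%, with 9.04% of the genome. The 30-cycle KO domains covered 100% of the WT-only stretch of Cyp3a13, 99.1% of that of Tor1a and 61.3% of that of Ror2. They covered 59.8% of that of Slc6a3 and 46.9% of the collagen VI stretch. The classes thus describe the 12-cycle calls only.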

How the data were processed

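ChIP-seq of lamin A/C with antibody N18 was compared between Tmpo KO and WT fibroblasts at 12 cycles, 1 library each. As the submitters' notes and the study's methods state, the authors used cutadapt for trimming and Bowtie2 2.1.0 for alignment to mm9, kept mapping quality of at least 20, removed duplicates, reduced ChIP reads to the input's read number with Picard, and called regions against input of the same genotype and shearing. The deposited island lists (SICER 1.1, window 1000 bp, gap 3000 bp, FDR 0.01) hold counts of ChIP reads per island, not divided by input. The deposited domain lists (EDD 1.0.2, bins of 11 kb, gap penalty 5, FDR 0.1) hold a score, which the authors' caller gave each domain. Reads, inputs and histone marks were not analysed here.

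Domains and islands were split into KO-only, WT-only and shared bp with Python 3.11.15 and NumPy 2.4.6 and drawn with matplotlib 3.10.9. The split was tested on simulated data with planted edges, wholes and gaps. A stretch was a whole where its domain held no bp of the other genotype, an edge where 1 side met shared sequence, and otherwise lay between shared parts. Islands were assigned to stretches by their midpoint. Genes were 22208 symbols (22350 protein-coding records) of an mm9 annotation, counted at 50% coverage. Stretches were named by length (the 5 longest of each class), with the genes of the lists inside them, at most 4 each, longest first. Every changed gene of the lamina, retinoblastoma and matrix lists was named, and the longest of the others. Genes beyond this rule were named after their values were seen. Members and the 19 lists were chosen with earlier results of these data known. Positions count from 1 on mm9, and 0 regions passed a chromosome end. RefSeq start windows matched 14849 of the 22208 genes and served only for the printed runs. Alternatives were islands for domains, domains scoring above the median or of at least 500 kb, domains closer than 110 kb merged, autosomes alone, sets of the same length, stretches of at least 100 kb, a domain counted as held from 10%, and genes by start or by 1 bp. Chromosomes of like island coverage were added after seeing the data. Read totals stated by the study were left aside, and no interval is given for which regions were called.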

Additional observations from a re-analysis of the deposited data

Results flagged for a closer look

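The total domain length differed between KO and WT by 17.9 Mb with N18 at 12 cycles, while with 3A6 it differed by -14.7 Mb at 12 cycles and by -82.3 Mb at 30 cycles (KO minus WT). With N18 at 30 cycles it differed by 233.4 Mb. These were singled out because the libraries of N18 moved one way and those of 3A6 the other. The difference between antibodies was not tested, since each side had 1 library, and both antibodies shared the inputs of a shearing.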

How the results depend on the processing

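Of 63 values recomputed for 8 results, 53 stayed near the reported value (within 1.5 times for lengths and counts, within the 95% Wilson interval over domains for percentages), and 10 did not. The Wilson interval served only as a tolerance. It measures no spread of these values, since the percentages are of bp and the domains of 1 library are not replicates. With SICER islands in place of domains KO kept 41.8% of WT bp, regions without the other genotype held 66.96% of the KO-only and 73.1% of the WT-only bp, and WT-only genes numbered 1736. With domains scoring above the median, whole domains held 40.9% of the KO-only bp. On the chromosomes of like island coverage alone, chosen after seeing the data, KO-only length was 45.1 Mb and WT-only length 93.1 Mb, KO-only genes numbered 425, and whole domains held 35.5% of the KO-only and 35.8% of the WT-only bp. KO-only length was thus below WT-only length there, and with sets of the same length they were nearly equal, at 162.07 Mb and 162.36 Mb. The restriction to like coverage drops 11 chromosomes, and other causes were not tested.

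No paired analysis was possible because each genotype had 1 library, and for the same reason no library was left out. The region lists do not give the depth of the libraries and inputs, and the study's read numbers were not used here. Regions without a call were not shown to lack lamin A/C, and differences in ChIP and in input cannot be told apart.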

Other observations

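The edges of N18 domains lay near edges of other libraries to different degrees. Of 478 KO edges 41.2% were within 110 kb of an edge of the 12-cycle 3A6 domains of KO, 33.1% of the 30-cycle N18 domains of KO, 21.5% of the LAP2alpha domains and 20.3% of the N18 domains of WT. Of 476 WT edges 44.3% were within 110 kb of an edge of the 12-cycle 3A6 domains of WT, 42.4% of the LAP2alpha domains and 38.2% of the 30-cycle N18 domains of KO. The libraries of 1 genotype and shearing share an input.

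Along the chromosomes, 39.5% of KO-only, 40.5% of WT-only and 64.3% of shared sequence lay in the part of the chromosome farthest from the centromere when each chromosome was cut into 3 equal parts, and 36.6%, 23.0% and 19.5% lay in the part nearest to it.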
